A study of Homo sapiens with 9 samples.

Results

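The end of the short arm of chromosome 1, band 1p36, carried 370 of the 19861 p300 peaks of the series. These are the peaks on chromosome 1 of hg19 with a midpoint below 5 Mb, without those that overlap a repeat cluster at 2584112 to 2629801. Positions are counted from 1. The stretch was selected on its number of peaks per Mb, which was known from these lists, so its density is described here and not tested. Peaks came from chromatin immunoprecipitation and sequencing of p300 in PC3 cells, an established line from a metastasis of human prostate cancer. The treated group received 30 µM MnTE-2-PyP (T2E in the labels) for 24 h, with 3 p300 libraries, and the untreated group received no drug, with 2. All cells of both groups were exposed to 20 Gy of radiation and fixed 1 h later, so no group here was free of radiation. The libraries are described as biological replicates of 1 cell line, and 4 input libraries were not analysed here.

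p300 is a histone acetyltransferase and coactivator that transcription factors recruit to promoters and enhancers, where it acetylates histone tails. MnTE-2-PyP is a manganese porphyrin that mimics superoxide dismutase and alters the redox state of cells. Band 1p36 is rich in genes and in CpG islands, and it is often deleted in neuroblastoma and other cancers. In the gene order of GRCh38.p14, going inward from the chromosome end, the arm carries ISG15, an interferon-induced ubiquitin-like protein, AGRN, the organiser of the neuromuscular junction, MIR200B, a microRNA that restrains epithelial-mesenchymal transition, and DVL1, a Wnt signal transducer. Further inward come GNB1, a G protein subunit, PRKCZ, an atypical protein kinase C, SKI, a repressor of TGF-beta signalling, and TNFRSF14, a receptor of lymphocytes. MMEL1, TTC34, PRDM16, a transcription factor of brown fat and blood stem cells, TP73, a relative of p53, and AJAP1, a junction protein, follow. The peak lists are on hg19, no annotation of that build was used, and no peak was assigned to a gene.

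The treated lists held 65, 217 and 2 of these peaks in lists 1, 2 and 3, and the untreated lists held 37 and 49 in lists 1 and 2. Treated list 2 thus supplied more than all other lists together, and treated list 3, the shortest list of the series, supplied almost none. Read depth is unknown, since the lists hold no read counts, and a longer list may reflect depth or pull-down as well as binding. As a share of its list, the stretch held 1.32% (95% Wilson interval 1.04 to 1.68%), 2.16% (1.89 to 2.46%) and 0.379% (0.104 to 1.37%) of the treated lists, and 1.60% (1.16 to 2.20%) and 2.40% (1.82 to 3.16%) of the untreated lists. The intervals cover counting error only. The share averaged 1.29% ± 0.890 in treated lists (SD, n = 3) and 2.00% ± 0.568 in untreated lists (SD, n = 2), and the shares of the groups overlapped. The stretch makes up 0.165% of the span of the genome between first and last peaks. Peak density was 7.98, 13.0 and 2.29 times the list's own mean in the treated lists, and 9.67 and 14.5 times in the untreated lists.

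The names of the peaks carry a code, called the run identifier here, that pairs treated list 1 with untreated list 1 and treated list 3 with untreated list 2. What the code stands for is not stated, so a shared code may not mean a shared run. With the drug the share was lower in both pairs, with a difference of -0.279 points in the first and -2.02 points in the second. The number of peaks had opposite directions in these pairs, with 65 treated against 37 untreated peaks in the first and 2 treated against 49 untreated in the second. With a single list per group, these pairs allow no test.

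**Figure D1:**
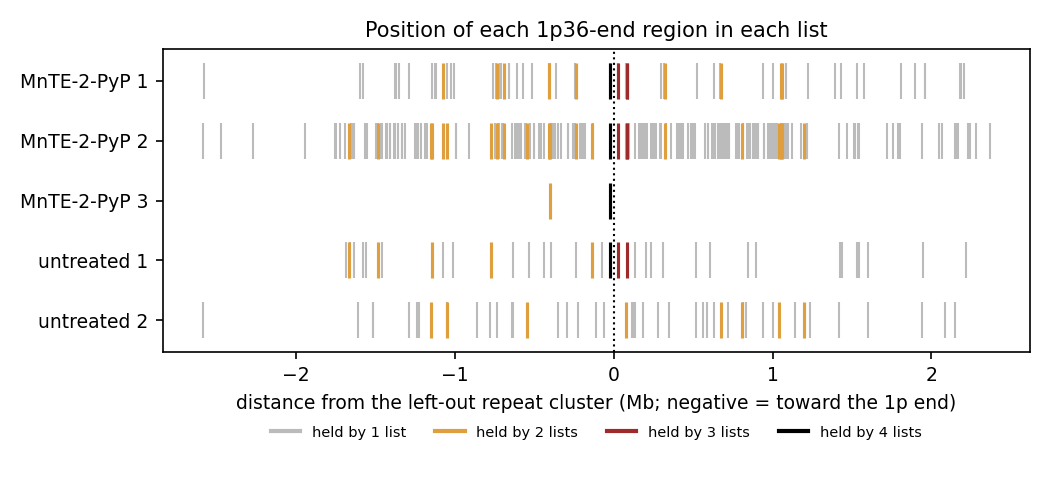
Each vertical line is a region of 1 or more overlapping p300 peaks, drawn in every list that holds it, against its distance in Mb from the left-out repeat cluster (dotted line), and the colour gives how many of the 5 lists hold it. The 1 region in 4 lists and both regions in 3 lists lie within 65 kb of the cluster.

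Along the stretch, peaks were spread unevenly and left the outermost part nearly empty. Between 0 and 0.75 Mb the 5 lists held 6 peaks in all, with 1, 4 and 0 in the treated and 0 and 1 in the untreated lists. From 0.75 to 2.5 Mb there were 155 peaks in 141 regions, or 88.6 per Mb, where a region is a run of peaks of any list that overlap by 1 bp or more. From 2.75 to 3.75 Mb there were 129 peaks in 123 regions, or 129 per Mb. Beyond 3.75 Mb the number dropped again, to 51 peaks, or 40.8 per Mb. The block between these, from 2.5 to 2.75 Mb, held 29 peaks, or 116 per Mb of its full length. Of that length 45.7 kb is the left-out cluster, so the density of the remainder is higher than this value. The 3 bins of 0.25 Mb with most regions began at 3.25, 3.5 and 2.75 Mb and held 36, 32 and 29 regions. Treated list 2 gave 29, 25 and 21 of the peaks there, against 2, 5 and 3 of treated list 1. Those of untreated list 1 were 1, 1 and 3, and those of untreated list 2 were 6, 4 and 3. The fullest bin of treated list 1 began at 2.5 Mb, with 10 peaks, and untreated list 1 had 5 peaks each in the bins that began at 2.5 and 4 Mb. The 3 bins with fewest began at 0.25, 0.5 and 0 Mb and held 1, 1 and 4. The widest intervals without any of these peaks were 332 kb from 331398 to 663674, 199 kb from 132090 to 330989 and 188 kb from 663964 to 852163, all near the chromosome end. An interval of 161 kb from 3842425 to 4003163 was also empty. The hg19 assembly has gaps on this arm, to which no read can be assigned, and their positions were not used here.

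The part from 2.75 to 3.75 Mb was not equally filled in all lists. It held 18.5% (95% Wilson interval 10.9 to 29.6%), 42.9% (36.4 to 49.5%) and 0% of the stretch's peaks in treated lists 1, 2 and 3, and 18.9% (9.48 to 34.2%) and 34.7% (22.9 to 48.7%) in untreated lists 1 and 2. The high values were those of treated list 2 and untreated list 2, which differ in run identifier. The near-equal low values were those of treated list 1 and untreated list 1, which share one. Treated list 3 shares its identifier with untreated list 2 but held 0% here, of only 2 peaks. Treated and untreated lists thus lay on both sides of the difference between high and low values. Treated list 1 and untreated list 1 had fewer peaks per Mb here, at 12 and 7, than from 0.75 to 2.5 Mb, at 17.1 and 10.3. From 0.75 to 2.5 Mb the shares were closer, at 46.2% and 40.1% in treated lists 1 and 2 and 48.6% and 38.8% in untreated lists 1 and 2. Over the 20 bins, Spearman's rho between the counts of 2 lists was 0.48 for treated lists 1 and 2, 0.56 for treated list 1 and untreated list 1, 0.57 for treated list 1 and untreated list 2, 0.49 for treated list 2 and untreated list 1, 0.65 for treated list 2 and untreated list 2, and 0.39 for the untreated lists. These coefficients describe bins that share the same gaps and the same sequence, and treated list 3 was left out of them for its 2 peaks.

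**Figure D2:**
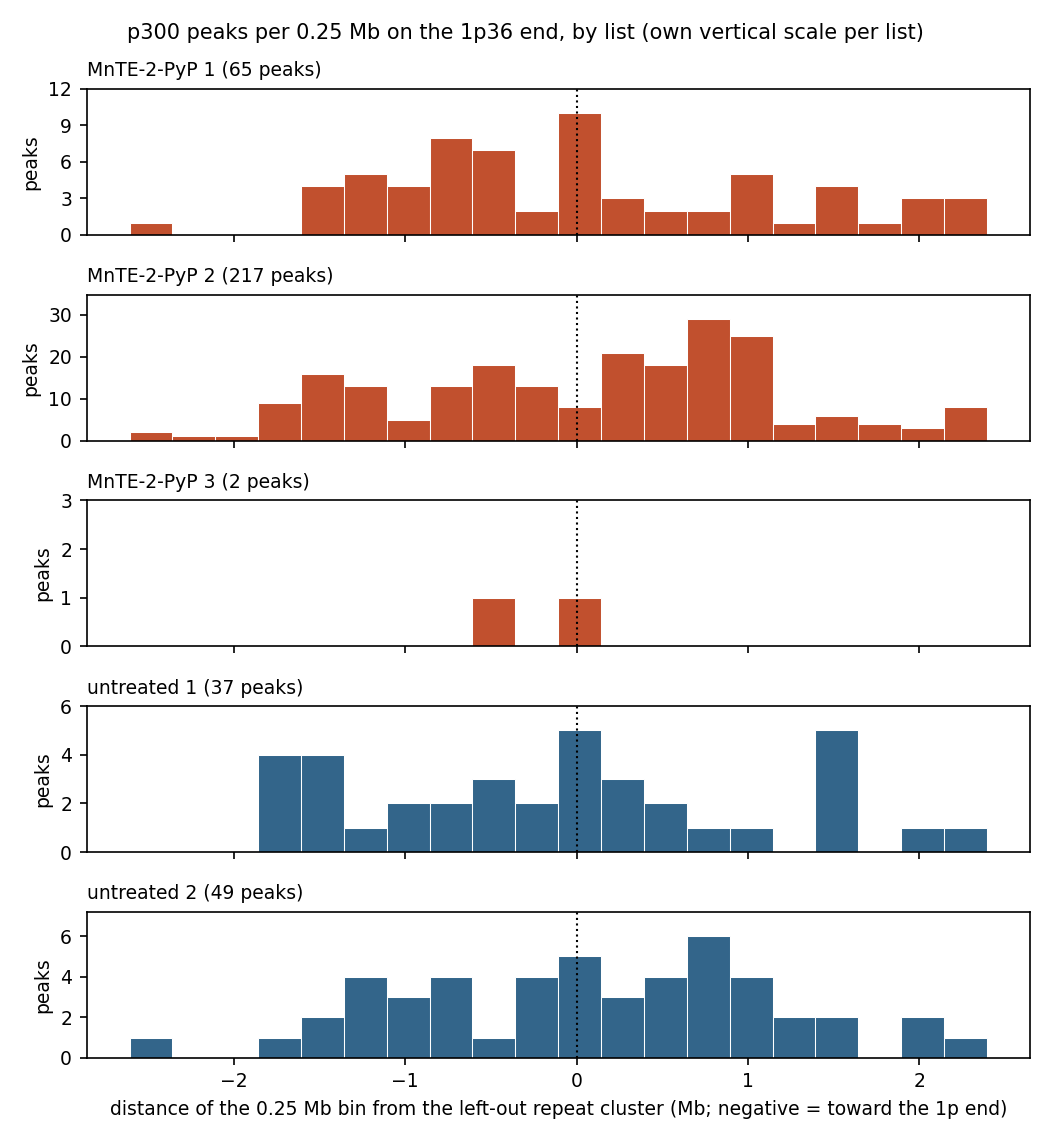
Bars give the number of p300 peaks per 0.25 Mb in each list, each with its own vertical scale, against the distance in Mb from the left-out repeat cluster (dotted line). Treated list 2 (217 peaks) and untreated list 2 (49 peaks) have their tallest bar in the bin that begins at 3.25 Mb, with 29 and 6 peaks.

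Few sites were found more than once. The 370 peaks merged into 339 regions, of which 312 were in a single list, 24 in 2 lists, 2 in 3 lists and 1 in 4 lists. Regions in 2 or more lists were 27, or 7.96%, against 10.4% of the 16701 regions of the series. Regions in 3 or more lists were 3, or 0.885%, against 4.23% of the series, and none was in all 5 lists, against 0.886%. Of the single-list regions, 191 were in treated list 2, 51 in treated list 1, 29 in untreated list 1 and 41 in untreated list 2. In lists with more than 2 of these peaks, 21.5% and 12.0% of the peaks of treated lists 1 and 2 and 21.6% and 16.3% of those of untreated lists 1 and 2 lay in a shared region. Among all other peaks of the same lists the shares were 27.8% and 14.2% for the treated and 43.3% and 33.6% for the untreated lists. The share was lower on the 1p36 end in 4 of these 4 lists, and the difference was not tested, since overlap depends on density. Treated list 3 had both of its peaks in shared regions, or 100%, against 84.6% of its other peaks. All other peaks, here and below, include those of the left-out cluster, 38, 28 and 15 in the treated and 24 and 11 in the untreated lists.

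The shared regions were held either by treated lists alone or by lists of both groups. Regions held by at least 2 treated lists and by neither untreated list numbered 11, or 3.24% of the 339, against 2.93% of all regions of the series. No region was held by the untreated pair alone, against 0.186% of the series. The other 16 shared regions had peaks of both groups. Without treated list 2 the shared regions were 4 in place of 27 and the treated-only regions 0 in place of 11, and without treated list 1 they were 15 and 1. Untreated lists 1 and 2 had no region in common here, against 2.01% of the series' regions that both held. In counts, 0 of the 37 peaks of untreated list 1 overlapped any of the 49 of untreated list 2. The limit for a count of 0, taken as 3 counts, allows a share of up to 8.11%, and the 95% Wilson interval reaches 9.41%. Elsewhere in the genome the overlap of this pair was 16.1% of the peaks of untreated list 1 and 17.2% (15.6 to 18.9%) of those of untreated list 2. Treated lists 1 and 2 overlapped at 18.5% (10.9 to 29.6%) of the 65 peaks of list 1, which was 5.53% of the peaks of list 2, against 21.2% of the shorter and 9.94% of the longer list elsewhere. Between groups, 8.11% (2.80 to 21.3%) of the peaks of untreated list 1 met a peak of treated list 1 and 18.9% (9.48 to 34.2%) one of treated list 2. The overlap of untreated list 2 was 2.04% (0.361 to 10.7%) with treated list 1 and 14.3% (7.10 to 26.7%) with treated list 2. Elsewhere the same overlaps were 31.1% and 32.2% for untreated list 1 and 23.7% and 26.5% for untreated list 2.

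**Figure D3:**
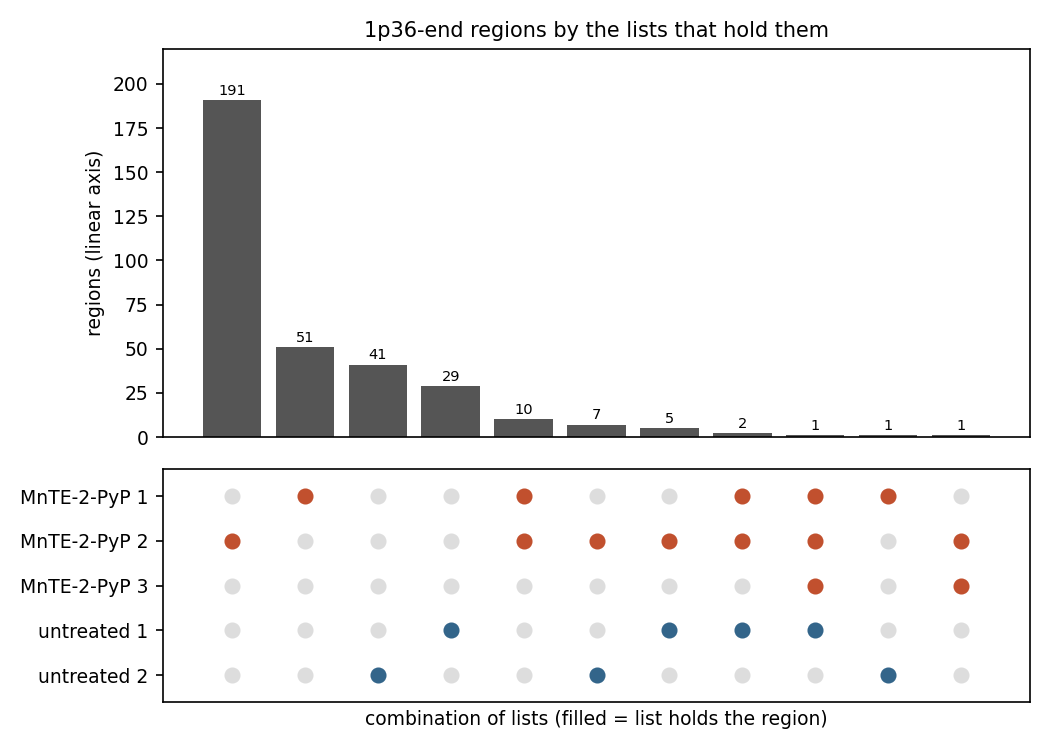
Bars count the 339 regions by the combination of lists that hold them, and filled dots below each bar show which lists these are. The 4 tallest bars, at 191, 51, 41 and 29 regions, are regions of a single list, and no combination joins untreated lists 1 and 2.

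The most widely shared regions bordered the left-out repeat cluster. The region in 4 lists, on chromosome 1 at 2583432 to 2584073, ended 39 bp before the cluster's first base. Its scores were 12.1, 8.82 and 17.9 in treated lists 1, 2 and 3 and 11.5 in untreated list 1, or percentiles of 84.0, 91.4 and 89.5 in the treated and 71.9 in the untreated list. The percentile is the rank of the authors' score within its own list, where 100 is the highest. The region was high in all 4 lists that held it, and untreated list 2 held no peak that overlapped it. A peak of untreated list 2 at 2584112 to 2585919, at the 88.7 percentile, began at the cluster's first base. It was left out with the cluster, so its absence here follows from that limit. One region in 3 lists, at 2629927 to 2631071, began 126 bp after the cluster and scored 8.17 and 6.25 in treated lists 1 and 2 and 4.30 in untreated list 1. The other, at 2687237 to 2688058, lay 57.4 kb after it and scored 9.79 and 4.74 in treated lists 1 and 2 and 8.42 in untreated list 1. Both regions in 3 lists were joined by a chain of overlaps, and neither has a base common to all 3 lists. In the first, the peaks of treated list 2 and untreated list 1 did not overlap each other. In the other, those of treated lists 1 and 2 did not. Between 2633607 and 2684566 no list held a peak, and from 2684566 to 2691074 peaks followed one another closely again. Positions of gaps in the hg19 assembly were not used, so whether a peak could be called in the empty interval is not known.

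These flanks differed from the rest of the stretch. Within 65 kb of the cluster, a distance chosen after the positions were seen, 13 regions held 23 of the 370 peaks. Of these regions 6 (46.2%) were in 2 or more lists, and 3 (23.1%) in 3 or more. Farther away, 326 regions held 347 peaks, 21 regions (6.44%) were in 2 or more lists and 0 in 3 or more. Whether the flanks belong to the same repeat was not tested, because no sequence of hg19 was used. The peaks just outside the limit of the cluster were in treated list 2 at 2583432 to 2584073 (score 8.82) and treated list 3 at 2583575 to 2584014 (17.9) on one side, and in treated list 1 at 2629927 to 2631020 (8.17) and untreated list 1 at 2630211 to 2630489 (4.30) on the other. Just inside it were peaks of untreated list 2 at 2584112 to 2585919 (9.20) and untreated list 1 at 2584188 to 2585115 (12.7), and at the far side of treated list 2 at 2628694 to 2629801 (9.81) and untreated list 1 at 2629041 to 2629439 (22.4). At the 5 Mb limit the last peaks inside were in treated list 2, at 4979078 to 4979372 (3.91) and 4887806 to 4888205 (3.54). The first beyond were in treated list 2 at 5286635 to 5286925 (4.69) and untreated list 2 at 5401764 to 5402114 (4.11).

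The other shared regions were held by 2 lists each, and 21 of these 24 lay more than 65 kb from the cluster. The highest by mean percentile spanned 1918045 to 1918621 and scored 7.50 and 8.90 in treated lists 1 and 2, or percentiles of 52.5 and 91.6. Next came 2371611 to 2372122, with 7.14 and 9.60 in the same lists (percentiles 45.2 and 93.2). Both were of middling rank in treated list 1 and above the 90 percentile of treated list 2. The region at 2684566 to 2685095, in the flank 54.8 kb after the cluster, had 10.4 in treated list 2 and 4.82 in untreated list 2 (percentiles 94.3 and 42.6). The region at 2206766 to 2207094 had 6.25 and 8.31 in treated lists 2 and 3 (percentiles 75.3 and 55.4) and is the only one here, beside the region in 4 lists, with a peak of treated list 3. Among the next were 1833130 to 1833546 with 5.05 in treated list 2 and 10.7 in untreated list 1, and 1555244 to 1556394 with 4.27 in treated list 2 and 8.20 in untreated list 2. In the second of these the peak ranked at the 30.9 percentile in the treated and the 84.3 percentile in the untreated list.

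Other regions named by the same order follow. The region at 3280805 to 3281658 had 5.04 in treated list 1 and 7.74 in untreated list 2, and that at 3413100 to 3413646 had 4.60 in treated list 2 and 5.55 in untreated list 2. The treated-only regions at 2690642 to 2691074 and 1873146 to 1873669 had 6.37 and 7.04, and 5.50 and 6.83, in treated lists 1 and 2. Further treated-only regions began at 2688427, 3659308, 1529427, 2930265 and 2197590, with mean percentiles of 43.1, 42.2, 33.3, 31.0 and 20.2.

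Peaks of the stretch ranked low in their lists. The median percentile was 35.0, 39.1 and 72.4 in treated lists 1, 2 and 3 and 32.0 and 33.3 in untreated lists 1 and 2, against 50.3, 47.0 and 49.9 for all other treated peaks and 50.3 and 50.3 for all other untreated peaks. It was lower on the 1p36 end in 4 of 5 lists, and higher in treated list 3, whose value rests on 2 peaks. The mean difference from the rest of the list was -7.23 points ± 17.1 (SD over 5 lists, exact sign-flip permutation p = 0.375, two-sided). Without treated list 3 it was -14.7 ± 4.65 (exact permutation p = 0.125), the smallest p that 4 lists allow. At or below the 50 percentile were 67.7% and 56.7% of the peaks of treated lists 1 and 2 and 70.3% and 69.4% of those of untreated lists 1 and 2.

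The highest peaks of the stretch stayed below the very top of their lists, at percentiles of 84.5, 96.6 and 89.5 in treated lists 1, 2 and 3 and 73.8 and 92.4 in untreated lists 1 and 2. The highest score was 12.2 in treated list 1 (at 2633412 to 2633607), 13.9 in treated list 2 (4673713 to 4674173) and 17.9 in treated list 3 (2583575 to 2584014). It was 11.8 in untreated list 1, where peaks at 945188 to 945483 and 1594392 to 1594817 tied, and 10.4 in untreated list 2 (2729382 to 2729770). These were ranks 750, 339 and 56 in the treated lists and 592 and 155 in the untreated lists. The top peaks of treated lists 1 and 3 lay within 65 kb of the left-out cluster, and those of the other 3 lists lay farther away. Above the 90 percentile of their list were 0 of 65, 20 of 217 and 0 of 2 treated and 0 of 37 and 1 of 49 untreated peaks. The 20 peaks were 9.22% of those of treated list 2, close to the share of the whole list above that percentile.

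Between the groups, the median percentile was 48.8 ± 20.6 in treated lists (SD, n = 3) and 32.6 ± 0.892 in untreated lists (SD, n = 2). The difference of 16.2 points reached the smallest p that 3 against 2 lists allow (exact two-sided permutation p = 0.2), and the groups did not overlap. Without treated list 3 the difference was 4.37 points (exact permutation p = 0.333, again the smallest possible). Within the pairs of one run identifier it was 2.96 points for treated list 1 over untreated list 1 and 39.2 for treated list 3 over untreated list 2.

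**Figure D4:**
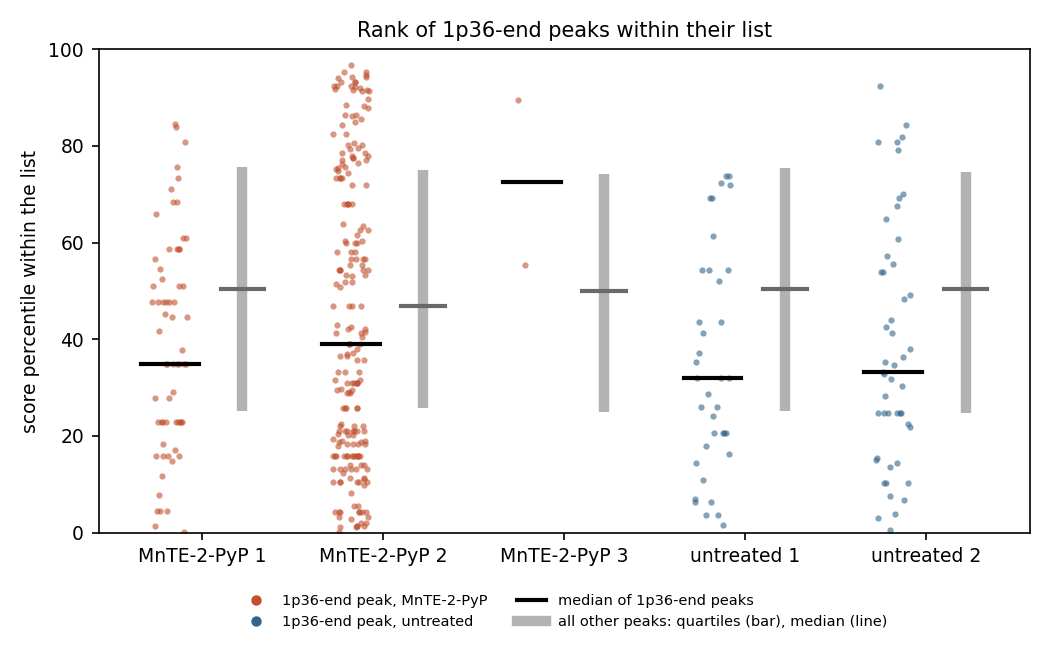
Coloured points are the peaks of the 1p36 end by score percentile within their list, with their median as a black line, and the grey bar and line give the quartiles and median of all other peaks of that list. Medians of 35.0 and 39.1 in treated lists 1 and 2 and 32.0 and 33.3 in untreated lists 1 and 2 lie below those of the other peaks, and that of treated list 3, with 2 peaks, lies above.

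Shared peaks of the 1p36 end outranked single-list peaks by 1.43 and 2.18 points in treated lists 1 and 2 and by 7.97 and 22.1 points in untreated lists 1 and 2. Their median percentiles were 36.4 against 35.0 in treated list 1, 40.3 against 38.1 in treated list 2, 36.7 against 28.7 in untreated list 1 and 52.4 against 30.3 in untreated list 2. Elsewhere in the genome shared peaks had 77.1 against 43.8, 84.7 against 47.0, 69.1 against 43.5 and 68.0 against 43.5 in the same lists. The gap was smaller on the 1p36 end in 4 of 4 lists, by 21.9 points on average (-21.9 ± 15.1, SD, exact sign-flip permutation p = 0.125, the smallest that 4 lists allow). In untreated list 2 the gaps were close, at 22.1 points on the 1p36 end and 24.6 elsewhere. The peaks elsewhere include those of the left-out cluster, which the rule took out of the stretch. The effect of this on the gap was not tested.

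Peak widths differed more between lists than between groups. The median width was 246, 365 and 326 bp in treated lists 1, 2 and 3 and 222 and 401 bp in untreated lists 1 and 2. Means of these were 312 ± 60.7 bp (SD, n = 3) with the drug and 312 ± 127 bp (SD, n = 2) without it, a difference of 0.83 bp (exact two-sided permutation p = 1.0). The difference was 24 bp between treated and untreated list 1 and -75 bp between treated list 3 and untreated list 2. The narrowest peak of the whole list was 193, 291 and 200 bp in the treated and 199 and 332 bp in the untreated lists, so each list has its own lower limit of width. Within 2 bp of that limit were 18.5%, 27.2% and 0% of the stretch's peaks in the treated and 37.8% and 28.6% in the untreated lists.

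Set against other peaks of the same list, those of the 1p36 end were wider by 13, 43 and 83 bp in the treated lists, narrower by 13 bp in untreated list 1 (-13) and wider by 26 bp in untreated list 2. The mean difference was 30.4 bp ± 35.8 (SD over 5 lists, exact sign-flip permutation p = 0.188). Without the flanks of 65 kb it was 4.20 bp (exact permutation p = 0.75), and without treated list 3 it was 17.2 bp (exact permutation p = 0.375). Without the flanks, treated list 3 kept 1 of its 2 peaks, at 212 bp against a median of 243 bp elsewhere. With both peaks that list was 83 bp wider, so the fall to 4.20 bp rests largely on 1 peak of treated list 3. The other lists were not averaged alone without the flanks. The widest peaks were 1227 bp at 2688427 to 2689653 in treated list 1, 1324 bp at 3320953 to 3322276 in treated list 2 and 440 bp in treated list 3. In the untreated lists they were 663 bp at 2687237 to 2687899 in list 1 and 774 bp at 3418787 to 3419560 in list 2. The widest peaks of treated list 1 and untreated list 1 lay beside each other, in the flank beyond the cluster. The widest peaks of treated list 2 and untreated list 2 scored 4.10 and 4.96, at the 29.5 and 43.9 percentiles, so neither of these peaks ranked high. Over all peaks of the stretch, Spearman's rho between width and score was 0.26 in treated list 2 and 0.17 in untreated list 2. It was 0.0020 in treated list 1 and 0.018 in untreated list 1.

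**Figure D5:**
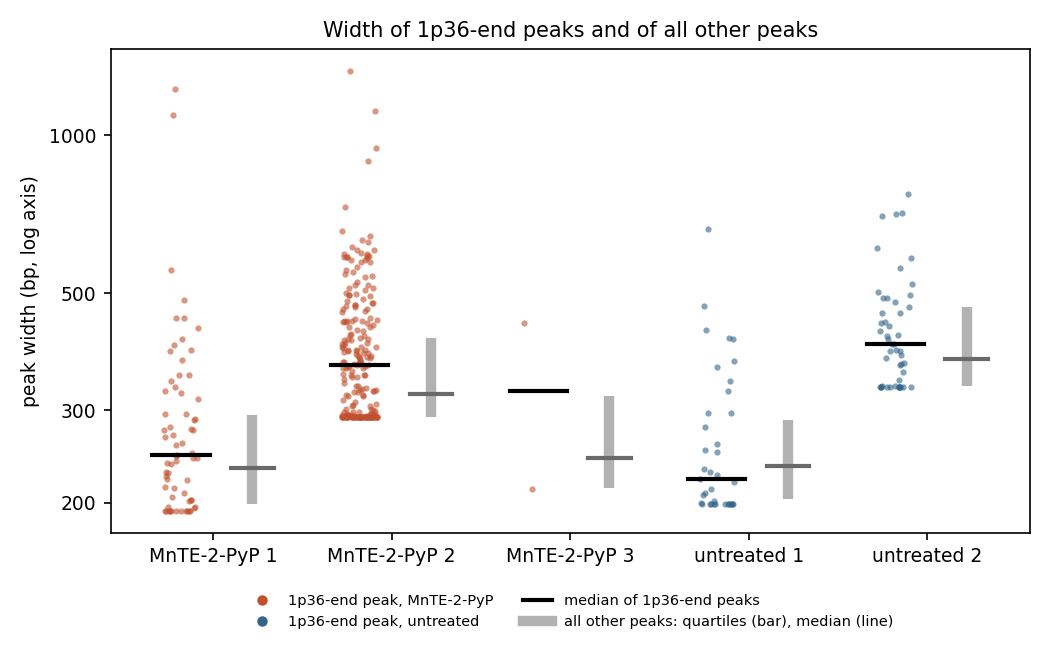
Coloured points are the widths in bp, on a log axis, of the 1p36-end peaks of each list, with their median as a black line, and the grey bar and line give the quartiles and median of all other peaks. In treated lists 1 and 2 and both untreated lists, points gather at the narrowest width of the list, from 193 bp in treated list 1 to 332 bp in untreated list 2, and neither of the 2 peaks of treated list 3 lies at that width.

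Comparison with 3 other stretches of 5 Mb showed where these features recur. The stretches were set by hand and not drawn at random, and the one on chromosome 8 was already known as dense in these lists. On chromosome 1 from 5 to 10 Mb, treated lists 1 and 2 held 32 and 66 peaks and untreated lists 1 and 2 held 15 and 14, or 0.650% and 0.656% of the treated and 0.649% and 0.687% of the untreated lists. The share was lower than on the chromosome end in each of these 4 lists. On chromosome 8 from 140 to 145 Mb it was 2.78% and 2.72% of treated lists 1 and 2 and 2.55% and 3.29% of untreated lists 1 and 2, higher than on the 1p36 end in all 4. On chromosome 17 from 76 to 81 Mb it was 1.32% and 1.83% in the treated and 1.12% and 1.62% in the untreated lists. The density of the 1p36 end, by which it was chosen, was thus exceeded on chromosome 8. The median percentile on chromosome 1 from 5 to 10 Mb was 27.8 and 47.0 in the treated and 32.0 and 23.8 in the untreated lists. In the stretch of chromosome 8 it was 35.0 and 40.5 in the treated and 29.5 and 41.3 in the untreated lists. In that of chromosome 17 it was 35.0 and 47.0 in the treated and 20.6 and 32.6 in the untreated lists.

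The mean difference in median percentile, 1p36 end minus the other stretch, was 2.18 points for chromosome 1 from 5 to 10 Mb, -1.75 for chromosome 8 and 1.03 for chromosome 17 (exact sign-flip permutation p = 0.75 for each, 4 lists). Their SDs over lists were 7.86, 4.47 and 7.95 points, so each difference was smaller than the spread between lists. Median widths differed by 21.8 ± 38.1 bp, -4.25 ± 8.26 bp and 17.6 ± 10.1 bp in the same order (SD, exact permutation p = 0.375, 0.5 and 0.125). Width on the 1p36 end was larger than on chromosome 17 in 4 of 4 lists, at the smallest p that 4 lists allow. Treated list 3 had no peak in any of the other 3 stretches. Sharing was lower than on the 1p36 end, flanks of the cluster included, in each list with peaks, both on chromosome 1 from 5 to 10 Mb and on chromosome 17. On chromosome 8 it was lower in treated list 1 and higher in treated list 2 and both untreated lists. In untreated list 1 the shared regions that began at 2583432, 2629927 and 2687237 lie in the flanks. Whether its direction holds without the flanks was not tested. On chromosome 1 from 5 to 10 Mb only 3 of 15 and 2 of 14 untreated peaks were shared. The share of peaks in a shared region was 3.12% and 6.06% in treated lists 1 and 2 and 20.0% and 14.3% in untreated lists 1 and 2 on chromosome 1 from 5 to 10 Mb. It was 16.1% and 12.4% in the treated and 33.9% and 22.4% in the untreated lists on chromosome 8, and 12.3% and 3.80% in the treated and 15.4% and 12.1% in the untreated lists on chromosome 17. The ranks of shared against single-list peaks had no common direction there. On chromosome 8 their median percentiles were 35.0 against 35.0 and 34.1 against 41.0 in treated lists 1 and 2 and 35.0 against 24.9 and 28.3 against 41.3 in untreated lists 1 and 2. On chromosome 17 they were 31.4 against 37.8 and 73.3 against 47.0 in the treated and 69.4 against 20.6 and 54.3 against 30.8 in the untreated lists, where shared peaks numbered 8, 7, 4 and 4. Shared peaks on chromosome 1 from 5 to 10 Mb numbered 4 or fewer in each list.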

How the data were processed

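Each library has its own peak list on hg19, made with MACS2 per the submitters' processing notes. For the aligner, version, threshold and input, the sources used here give nothing. The 5 deposited lists hold positions, names and one score for every peak. No scale is stated for the authors' deposited score, so it served only as a rank within its list. Read depth is unknown.

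The list was the unit of comparison. Overlap of at least 1 bp joined peaks of any list into a region. Group values were compared by exact two-sided permutation of the lists (10 splits), and differences within lists with an exact sign-flip test. The code was tested on simulated data. The peaks, rules and tests were chosen with earlier results of these data known. The regions named were those in 3 or more lists, up to 10 regions in 2 lists and up to 10 in treated or untreated lists alone by mean percentile, the highest-scoring and widest peak of each list, the fullest and emptiest bins, and the peaks nearest to each limit. Regions in 2 lists below that order are not named. Other settings were a score minimum, equal list lengths, limits of 4 and 6 Mb, a margin around the cluster, 50% overlap, merging within 500 bp, each list left out and the replicate number as a block. Run identifiers match for replicate number 1 alone, so the numbers do not pair the lists. No hg19 annotation or sequence was used. Python 3.11.15, numpy 2.4.6, pandas 2.3.3 and scipy 1.17.1 were used.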

Additional observations from a re-analysis of the deposited data

Results flagged for a closer look

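The number of p300 peaks on the 1p36 end had opposite directions in the 2 pairs that share a run identifier. The log2 ratio was 0.81 for treated list 1 over untreated list 1 (65 against 37 peaks) and -4.61 for treated list 3 over untreated list 2 (2 against 49 peaks). The log2 ratios of the full list lengths were 1.09 and -1.95 in the same pairs. The difference was not tested, since each pair holds 1 list per group.

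The median width of these peaks also differed in direction, by 24 bp in the first pair and -75 bp in the second. This difference was not tested either, and the treated value of the second pair rests on 2 peaks.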

How the results depend on the processing

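Over all settings 77 values held their direction, or for counts lay within 1.5-fold, 11 counts did not, and the sign changed in 9. All 9 were the width difference between groups, 0.83 bp as reported. It was -60.5 bp with only the 528 highest-scoring peaks kept per list, -1.67 bp with a limit of 4 Mb or 6 Mb, -36.3 bp without the cluster and 50 kb around it, -34.5 bp without 65 kb around it (added after seeing the data) and -6.00 bp with the replicate block. Both margins around the cluster leave treated list 3 with 1 peak, of 212 bp, where its median was 326 bp. Leaving out 1 list gave -88.7 to 90.3 bp. Regions in 2 or more lists, 27 as reported, were 7 with scores of at least 5.90, the pooled median,, 0 with 528 peaks per list and 4 to 26 with 1 list left out. Treated-only regions, 11 as reported, were 5, 0 and 0 to 13 in the same settings and 7 with 50% overlap. Regions held by the untreated pair alone, 0 as reported, were 0 to 41 with 1 list left out, because 1 untreated list then defines them. A score minimum and equal list lengths keep fewer peaks, which lowers counts. For 50% overlap the cause was not tested. With 528 peaks per list, treated list 1 and untreated list 1 had no peak here. With the replicate block, which equals leaving out treated list 3, the share difference was -0.26 points in place of -0.72 and the percentile difference 4.37 in place of 16.2. With 1 list left out these ran from -1.15 to -0.26 and from 4.37 to 23.1 points. No p in any setting was below 0.125. Unknown read depth limits every count.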

Other observations

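Many peaks of the 1p36 end carried one of a few recurring scores. The 5 commonest scores of the whole list were carried by 28 of 65, 19 of 217 and 1 of 2 peaks here in treated lists 1, 2 and 3, or 43.1% and 8.76% in lists 1 and 2, and by 13 of 37 and 10 of 49 in untreated lists 1 and 2, or 35.1% and 20.4%. Among all other peaks the shares were 18.4%, 25.9% and 7.22% in the treated and 17.4% and 16.7% in the untreated lists. The share was higher on the 1p36 end in 4 of 5 lists and lower in treated list 2, by 14.3 points on average (exact sign-flip permutation p = 0.188, two-sided). Without treated list 3 it was 7.23 points ± 18.5 (SD over 4 lists, exact sign-flip permutation p = 0.375). In treated list 1 the 65 peaks had 32 distinct scores, and 9 of them had a score of 5.50.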
